A study of Bos taurus with 15 samples.

Results

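Between the 16-cell embryo and the morula, a small set of transcripts came up from low signal in bovine (Bos taurus) embryos. Of 9155 named genes, each read from its probe set with the highest mean, 66 (0.721%) had a morula mean at least 3 above the oocyte mean on the scale log2(signal + 16), while the 2-cell, 4-cell, 8-cell and 16-cell arrays each lay less than 1 above the oocyte mean. A further 80 probe sets without a single gene name met the same rule and are not described. The genes were chosen by their values on the oocyte, 2-cell to 16-cell and morula arrays, which are therefore given as a description. The 1-cell and blastocyst arrays took no part in it, apart from the choice of a probe set per gene by its mean over all arrays. The tested differences are those between these 2 stages, while the spread behind each p-value was estimated from all replicated stages, oocytes and morulae included.

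The study followed total RNA from the oocyte to the blastocyst, amplified in 3 rounds and hybridized to Affymetrix Bovine Genome arrays. Oocytes had 3 arrays, 1-cell embryos 2, 2-cell, 4-cell, 8-cell and 16-cell embryos 1 each, morulae 3 and blastocysts 3. All came from oocytes aspirated from follicles. The protocol, given alike for every sample, describes maturation for 20 hours in medium with LH, FSH and fetal calf serum, fertilization in vitro and culture in SOF medium with fatty acid free albumin, with no other treatment. Animal ages, the embryo's age in days and the number of embryos behind an array are not given in the labels, and cumulus cells were removed by vortexing after fertilization. The replicates are called biological, without saying whether they came from separate cultures, so that a p-value covers the spread among these arrays and no more.

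A cattle embryo divides first on transcripts stored by the oocyte, and its own genome becomes broadly active around the 8-cell to 16-cell stage. In the morula the outer cells flatten, polarise and seal their contacts, and they become the trophectoderm, the first epithelium, which pumps fluid into the blastocyst cavity and later forms the placenta. The inner cells give rise to the embryo proper and to the hypoblast. Such an epithelium relies on keratins, on membrane transporters and on enzymes of its apical surface. In RNA of whole embryos, fewer cells of a type and less RNA per cell cannot be told apart.

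Some arrays stood apart. Among these 66 genes no gene differed by 4-fold or more between morula arrays 1 and 2, but 17 did between arrays 1 and 3 and 15 between arrays 2 and 3, against 26, 1137 and 1007 of all 9155 genes. Applied without oocyte 3 and morula 3, the rule found 87 genes, of which 52 were among the 66, and without morula 3 alone 95, of which 59 were. Poly(A) spike-in controls were near background on 6 arrays: oocyte 1, 1-cell 1, morulae 1 and 2, and blastocysts 1 and 2. They gave signal on the other 9. The rule thus set early arrays that mostly had this signal against morulae of which only morula 3 did. With the signal, the median of the 66 genes was 27.4 and 19.4 for oocytes 2 and 3 and 698 for morula 3. Near background it was 28.1 for oocyte 1 and 722 and 821 for morulae 1 and 2. The part of the spike-in classes in which genes met the rule was not tested. The middle-to-3′ ratio of the GAPDH control, which falls as labelled RNA gets shorter, came to 0.257 and 0.122 for 1-cell embryos, 0.134 for the 16-cell array, 0.625, 0.367 and 0.100 for morulae and 0.544, 0.643 and 0.339 for blastocysts. For cyclophilin it was 0.134 and 0.0628 for 1-cell embryos, 0.475 for the 16-cell array, 0.273, 0.322 and 0.178 for morulae and 0.766, 0.499 and 0.525 for blastocysts. For eIF-4E it was 0.0597 and 0.246 for 1-cell embryos, 0.0853 for the 16-cell array, 0.0636, 0.0842 and 0.887 for morulae and 0.0490, 0.0547 and 0.163 for blastocysts. GAPDH and cyclophilin thus had a higher ratio on every blastocyst array than on either 1-cell array, and eIF-4E did not. In oocytes the ratio was 0.0977, 0.237 and 0.0374 for GAPDH, 0.0607, 0.102 and 0.0141 for cyclophilin and 0.0388, 0.0964 and 0.235 for eIF-4E. Cyclophilin was thus higher on every morula array than on every oocyte array, while GAPDH and eIF-4E overlapped. The part of these ratios in the differences between stages, the defining morula rise included, was not tested. The 16-cell stage was read from a single array, and that array and morula 3 carried stromal transcripts. The 14 measured stromal and fibroblast markers summed to 570 to 1556 on the earlier arrays and 7185 on the 16-cell array. In morulae they summed to 499, 460 and 4465, and in blastocysts to 595 to 1017. Of the defining stromal genes, VIM had 1959, LUM 1397 and COL1A2 2432 on the 16-cell array, while DCN had 80.1 and COL1A1 8.43. On morula 3 DCN had 1324 and LUM 256, while VIM had 56.3, COL1A2 64.1 and COL1A1 18.9. The highest of these genes thus differed between the 16-cell array and morula 3. No late-appearing gene is on the stromal list. The part of these transcripts in the 16-cell and morula 3 values, and so in which genes met the rule, was not tested. The oocyte marker ZP2, an egg coat gene, had 11174, 12718 and 11905 in oocytes, 2836 on the 16-cell array, 99.7, 146 and 32.8 in morulae and 49.9, 68.3 and 19.9 in blastocysts. It was thus high in oocytes, lower on the 16-cell array and low from the morula on.

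Across the 66 genes the median signal was 28.1, 27.4 and 19.4 in oocytes, 20.6 and 20.8 in 1-cell embryos, and 16.3, 14.5, 18.8 and 22.8 on the 2-cell, 4-cell, 8-cell and 16-cell arrays. It was 722, 821 and 698 in morulae and 755, 1000.4 and 581 in blastocysts. The median morula rise that defined the set was 3.69 and the highest 6.19, for KRT18. Of the 66 genes, 41 stayed under a signal of 100 on all 9 arrays up to the 16-cell stage, and 42 lay under the oocyte mean on the 16-cell array. In 51 genes the lowest of the 6 morula and blastocyst arrays lay above the highest of the 9 earlier arrays, a pattern that 5.48% of all genes showed; the rule itself favours it.

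**Figure D1:**
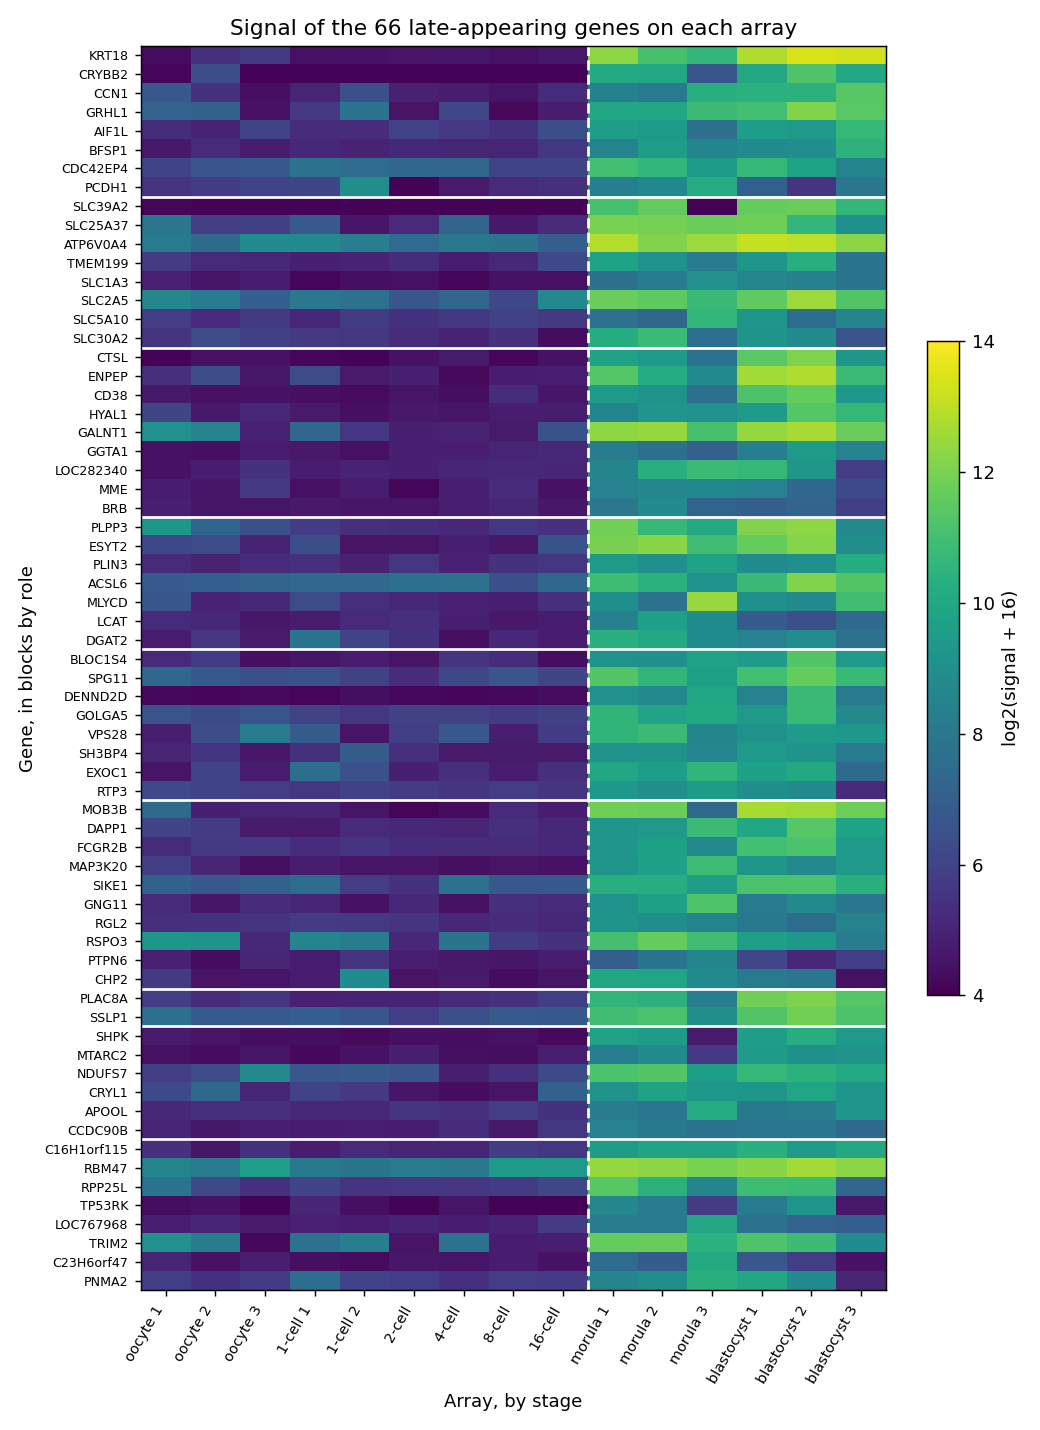
Signal of the 66 late-appearing genes (rows, in blocks by role) on each of the 15 arrays (columns, by stage), as log2(signal + 16) on a colour scale. The white dashed line separates the 9 arrays up to the 16-cell stage from the morula and blastocyst arrays, and 51 of the 66 genes have all 6 later arrays above all 9 earlier ones.

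The name "late-appearing" does not hold in full for every gene. A signal of 100 or more was seen on at least 1 of the 9 early arrays for 25 of the 66 genes. RSPO3 had 619, 535 and 19.6 in oocytes, PLPP3 had 604, 133 and 69.8, TRIM2 had 518, 276 and 2.79 and RBM47 had 347, 271 and 774. These genes thus had signal before cleavage that was low on the 16-cell array, RBM47 excepted. The 1-cell arrays, which the rule left out, lay 1 or more above the oocyte mean on at least 1 array for 9 genes, against 20.9% of all genes, and on both arrays for CDC42EP4, DGAT2 and EXOC1. The thresholds also have near misses. PTPN6, SLC5A10 and SIKE1 were the closest inside the morula threshold, at 3.04, 3.05 and 3.08, and NUDT14, ETS2 and MTA3 the closest outside, at 2.99, 2.98 and 2.96. AIF1L, LOC767968 and CDC42EP4 were the closest inside the early ceiling, at 0.92, 0.91 and 0.89, and RELL1, XPNPEP2 and MARCHF3 the closest outside, at 1.06, 1.08 and 1.10.

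On the arrays that the rule did not use, most of these genes were higher in the embryo after cavity formation than before the first cleavage. Between blastocysts and 1-cell embryos 50 of the 66 genes rose, 16 missed the threshold and none fell (limma, adjusted p at 0.05 over all 24016 probe sets), and at an unadjusted p of 0.05 none was lower either. Over all probe sets 8.91% rose and 7.40% fell. Over all 9155 genes 12.7% rose and 8.36% fell, and among the 861 genes at the same morula threshold, 9.40% of all, 559 rose whatever their early arrays showed. The median difference was 4.07 on the log2 scale, against 0.04 over all genes, and it ran from -0.66 for PCDH1 to 8.72 for KRT18. All 3 blastocyst arrays lay above both 1-cell arrays for 57 of the 66 genes, against 28.7% of all genes. The set was chosen for a high morula signal, and the blastocyst is the next stage, so these shares describe how far the signal lasted. Within the spike-in classes the median difference was 3.83 for the arrays with spike-in signal (blastocyst 3 against 1-cell 2) and 4.12 for the others (blastocyst 1 and 2 against 1-cell 1), and 62 of the 66 genes were above 0 in both. The number of the 66 genes that rose was 40 without 1-cell 1, 36 without 1-cell 2 and 61 without the arrays numbered 3. Among the genes that rose, ESYT2, GALNT1 and PLPP3 did not pass without 1-cell 2 (adjusted p = 0.0543, 0.0687 and 0.0746).

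**Figure D2:**
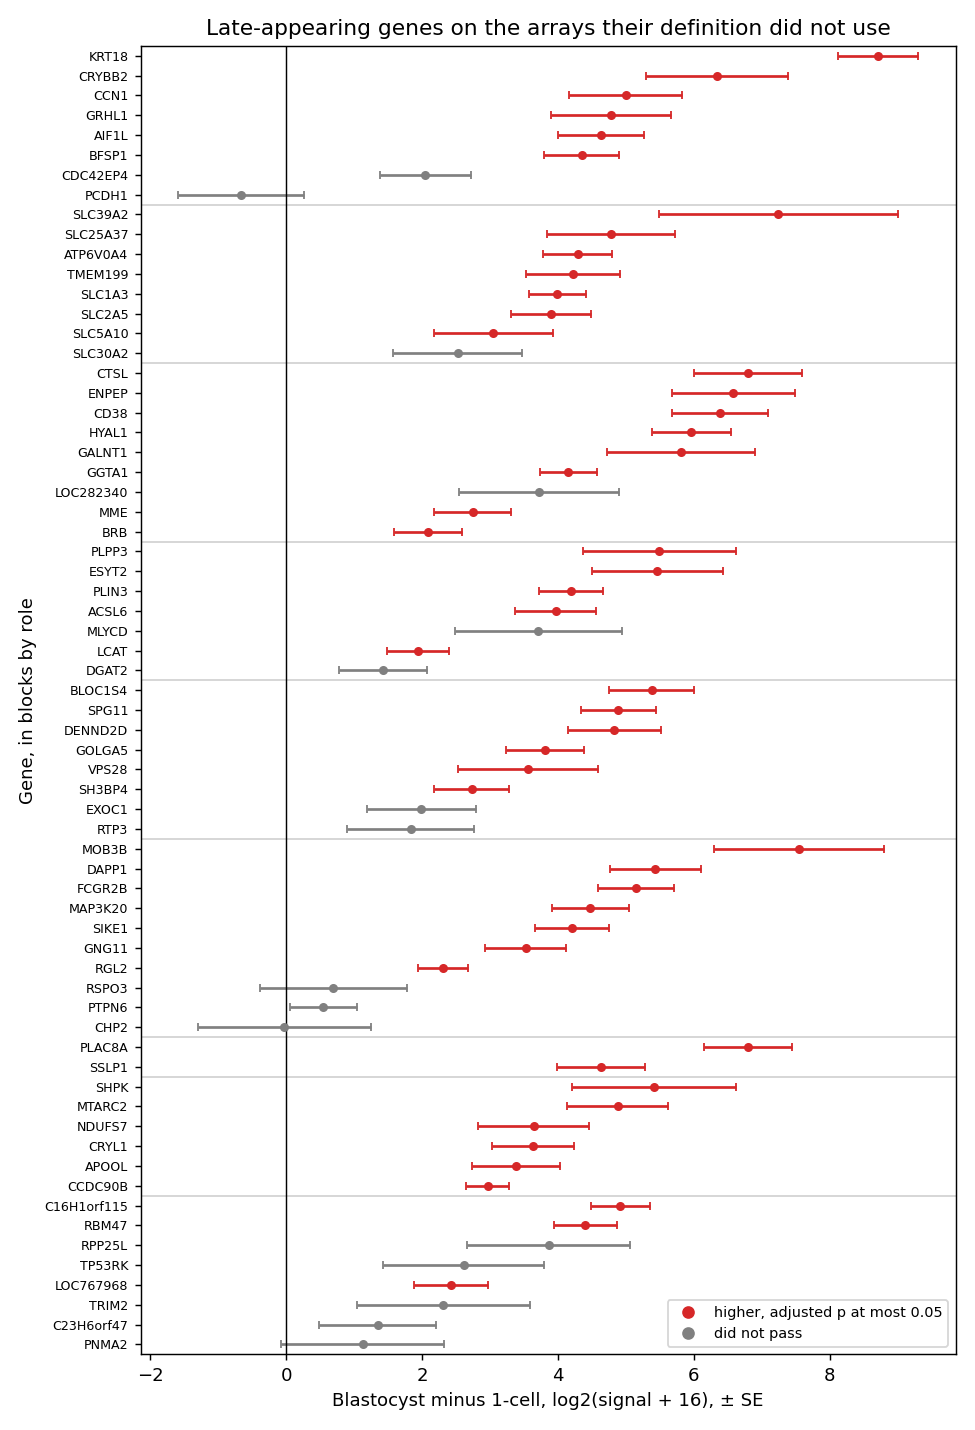
Difference between blastocysts and 1-cell embryos for each late-appearing gene on the log2(signal + 16) scale, with the standard error of the limma fit as bars, in blocks by role. Of the 66 genes, 50 (red) rose, and PCDH1 and CHP2 are the only points under 0.

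Genes of epithelium, cytoskeleton and adhesion held the largest difference of the set. KRT18 had a signal of 3.62, 27.4 and 35.5 in oocytes, 5.71 and 6.30 in 1-cell embryos, 6.02 to 8.75 over the 4 single arrays, 5008, 2145 and 1565 in morulae and 7119.7, 10988 and 10132 in blastocysts. KRT18 is a keratin of simple epithelia that pairs with KRT8. The lowest of the 6 later arrays was far above the highest of the 9 earlier ones, and the blastocyst level exceeded the 1-cell level by 8.72 (SE 0.59, adjusted p = 3.55e-05). GRHL1, a grainyhead transcription factor of epithelia, had 124, 118 and 6.60 in oocytes, 34.2 and 208 in 1-cell embryos, 3.19 to 53.8 over the 4 single arrays, 984, 1016 and 1839 in morulae and 2049, 4429 and 2728 in blastocysts. The early arrays of GRHL1 were uneven, with 1-cell 2 the highest of them, and the morula and blastocyst arrays all lay above. The blastocyst exceeded the 1-cell level by 4.79 (SE 0.88, adjusted p = 0.00510), and the adjusted p was 0.0560 without 1-cell 1. CCN1, a matricellular protein that binds integrins, had 5.38 to 92.1 over the 9 arrays up to the 16-cell stage, 325, 269 and 1267 in morulae and 1322, 1342 and 2706 in blastocysts, with a difference of 5.00 (SE 0.84, adjusted p = 0.00308) between blastocysts and 1-cell embryos. AIF1L, an actin-binding protein, had 15.9 to 66.6 over the 9 arrays up to the 16-cell stage, 758, 680.5 and 192 in morulae and 759, 671 and 1585 in blastocysts, with a difference of 4.63 (SE 0.64, adjusted p = 0.00110). Both genes had no early array as high as the lowest later one.

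Lens proteins were also in this block. CRYBB2, a beta-crystallin of the lens, had 2.06, 66.0 and 1.31 in oocytes, 1.03 and 1.00 in 1-cell embryos, 1.00 on each of the 4 single arrays, 1099, 1043 and 85.2 in morulae and 1038, 2384 and 1022 in blastocysts. A listed 1.00 may be a floor of the files, so the size of its rise, 6.34 (SE 1.04, adjusted p = 0.00277), depends on the 16 added before the logarithm. BFSP1, a beaded filament protein of the lens, had 9.44 to 32.8 over the 9 arrays up to the 16-cell stage, 344, 749.9 and 371 in morulae and 435, 458 and 1385 in blastocysts. BFSP1 rose by 4.35 (SE 0.55, adjusted p = 6.92e-04). By contrast CDC42EP4, an effector of the small GTPase CDC42, did not pass, with 1606, 874 and 352 in blastocysts, against 195 and 165 in 1-cell embryos, a difference of 2.05 (SE 0.67, adjusted p = 0.0663). The lowest blastocyst array of CDC42EP4 still lay above both 1-cell arrays. PCDH1, a protocadherin, had 122, 29.6 and 229 in blastocysts, against 51.2 and 481 in 1-cell embryos, a difference of -0.66 (SE 0.93, adjusted p = 0.708). The groups overlapped for PCDH1, with 1-cell 2 above every blastocyst array.

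**Figure D3:**
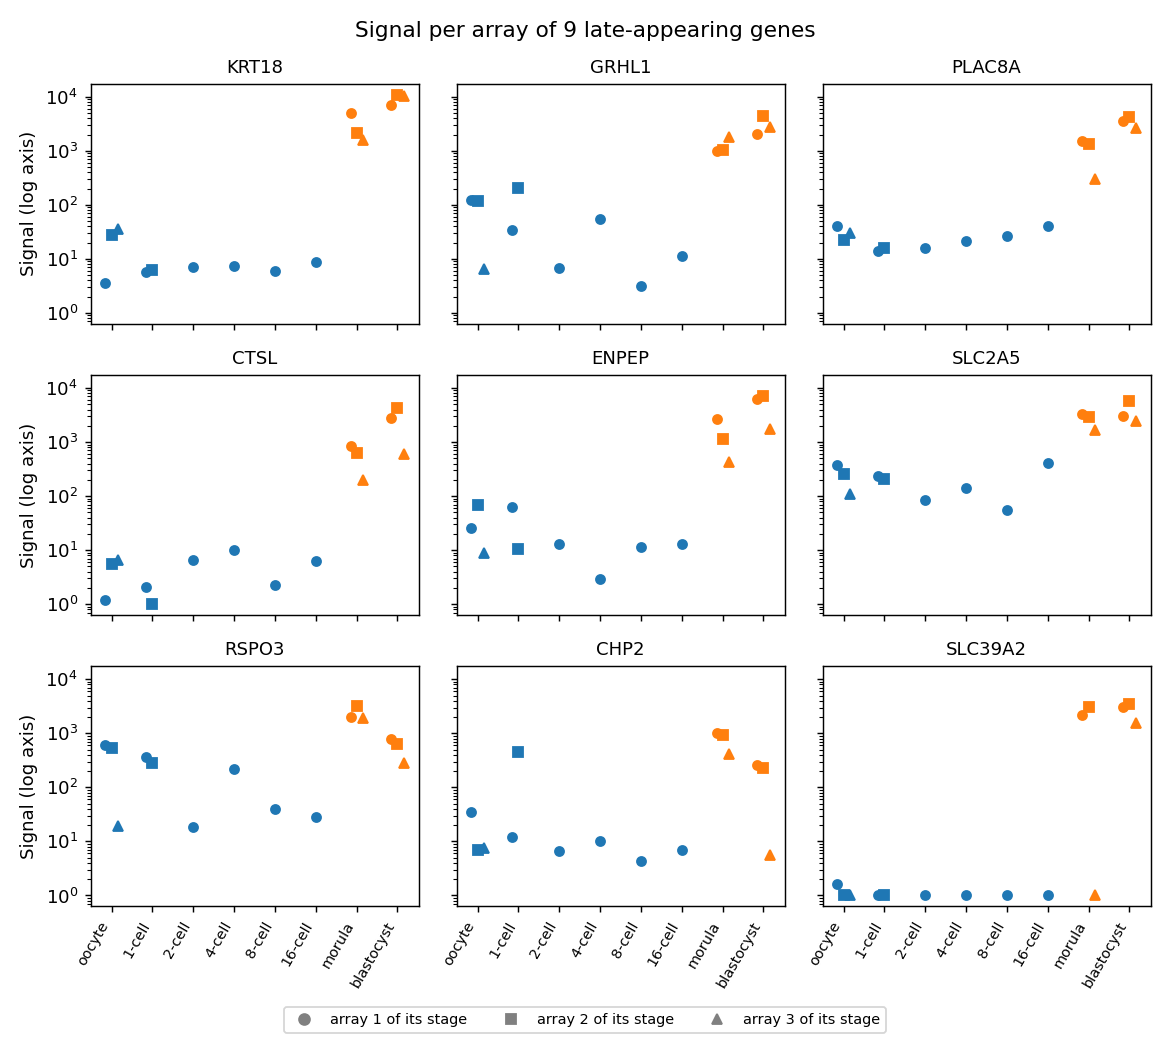
Signal on each array (log axis) of 9 late-appearing genes across the 8 stages, with the marker giving the array number within its stage, blue for stages up to the 16-cell embryo and orange for morula and blastocyst. KRT18, PLAC8A, CTSL and ENPEP have their highest arrays in the blastocyst, RSPO3 and CHP2 in the morula, and SLC39A2 is listed at 1.00 on morula 3 and on 8 of the 9 early arrays.

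Transporters of sugars, amino acids and metals and parts of the proton pump made up 8 genes, of which 7 rose and SLC30A2 did not pass. SLC2A5, the fructose transporter, had 377, 259 and 109.6 in oocytes, 237 and 204 in 1-cell embryos, 56.2 to 402 over the 4 single arrays, 3309, 2906 and 1683 in morulae and 3008, 5852 and 2454 in blastocysts. SLC2A5 had signal at every stage, and the 16-cell array was the highest of the early ones, so that it lay 0.81 above the oocyte mean. It rose by 3.90 (SE 0.59, adjusted p = 0.00184) between blastocysts and 1-cell embryos. SLC5A10, a sodium-coupled sugar transporter, had 18.8 to 46.7 over the 9 arrays up to the 16-cell stage, 205, 148 and 1568 in morulae and 604, 182 and 361 in blastocysts, with morula 3 far above the other 2 morula arrays. Its rise of 3.05 (SE 0.87, adjusted p = 0.0399) did not pass with quantile normalization, a pseudocount of 64, or without 1-cell 1, 1-cell 2, blastocyst 1 or blastocyst 3 (adjusted p from 0.0665 to 0.200), among other settings. SLC1A3, a glutamate and aspartate transporter, had 1.86 to 14.4 over the 9 arrays up to the 16-cell stage, 192, 253 and 515 in morulae and 382, 312 and 216 in blastocysts. SLC1A3 rose by 3.99 (SE 0.42, adjusted p = 2.60e-04). For SLC1A3 every later array lay above every earlier one.

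SLC39A2 and SLC30A2 belong to the families that carry zinc into and out of the cytosol. SLC39A2 had 1.66, 1.00 and 1.00 in oocytes, 1.00 on both 1-cell arrays and all 4 single arrays, 2139.5, 3065 and 1.00 in morulae and 3126, 3417 and 1576 in blastocysts. Its probe set was listed either near 1.00 or at 1576 and above, with morula 3 at the low value, so the size of its rise also depends on the 16 added. The rise of 7.25 (SE 1.76, adjusted p = 0.0194) did not pass without 1-cell 1, 1-cell 2, blastocyst 1 or blastocyst 2 (adjusted p 0.0548 to 0.112). SLC30A2 had 556, 432 and 81.5 in blastocysts, against 35.7 and 33.6 in 1-cell embryos, a difference of 2.53 (SE 0.95, adjusted p = 0.106) that did not pass. SLC25A37 (mitoferrin), which brings iron into mitochondria, had 8.46 to 227 over the 9 arrays up to the 16-cell stage, 4078, 3885 and 3399 in morulae and 3570.2, 1549.5 and 498 in blastocysts. SLC25A37 rose by 4.78 (SE 0.94, adjusted p = 0.00724), but not without 1-cell 2 (adjusted p = 0.0880). ATP6V0A4, a membrane subunit of the vacuolar proton pump known from kidney intercalated cells, had 253, 161 and 453 in oocytes, 410.2 and 293 in 1-cell embryos, 112 to 240.0 over the 4 single arrays, 7371, 4419.5 and 5935 in morulae and 8848, 8328 and 4841 in blastocysts. Its 3 morula and 3 blastocyst arrays lay far above a highest early signal of 453, and it rose by 4.29 (SE 0.51, adjusted p = 4.88e-04). TMEM199, an assembly factor of that pump, had 11.8 to 58.8 over the 9 arrays up to the 16-cell stage, 878, 554 and 264 in morulae and 604, 1234 and 218 in blastocysts. TMEM199 rose by 4.22 (SE 0.69, adjusted p = 0.00265).

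Among 9 enzymes of the cell surface, the lysosome, secretion and glycosylation, 8 rose and LOC282340 did not pass. CTSL, the lysosomal protease cathepsin L, had 1.21, 5.59 and 6.60 in oocytes, 2.06 and 1.00 in 1-cell embryos, 2.26 to 10.2 over the 4 single arrays, 860.4, 637 and 201 in morulae and 2749, 4309 and 609 in blastocysts. The highest early array of CTSL was at 10.2, and the blastocyst exceeded the 1-cell level by 6.80 (SE 0.80, adjusted p = 4.61e-04). ENPEP, glutamyl aminopeptidase of apical membranes, had 26.0, 67.4 and 8.75 in oocytes, 61.7 and 10.5 in 1-cell embryos, 2.93 to 13.2 over the 4 single arrays, 2635, 1159 and 434 in morulae and 6331, 7189.7 and 1778 in blastocysts. It rose by 6.58 (SE 0.91, adjusted p = 0.00109), and blastocyst 3 was the lowest of the blastocyst arrays as morula 3 was of the morula arrays. CD38, an ectoenzyme that cleaves NAD, had 3.47 to 23.6 over the 9 arrays up to the 16-cell stage, 687, 551 and 188 in morulae and 2365, 3183 and 629 in blastocysts. CD38 rose by 6.39 (SE 0.70, adjusted p = 3.38e-04). HYAL1, a lysosomal hyaluronidase, had 4.98 to 51.9 over the 9 arrays up to the 16-cell stage, 344, 571 and 522 in morulae and 724, 2607 and 1619 in blastocysts. HYAL1 rose by 5.97 (SE 0.59, adjusted p = 1.99e-04). GALNT1, which starts O-glycosylation of proteins, had 514, 330.2 and 14.6 in oocytes, 143 and 33.2 in 1-cell embryos, 10.5 to 76.3 over the 4 single arrays, 5086, 5531 and 2189 in morulae and 5459.9, 6629 and 3369.6 in blastocysts, and its rise of 5.81 (SE 1.10, adjusted p = 0.00573) did not pass without 1-cell 2 (adjusted p = 0.0687). The 2 higher oocyte arrays of GALNT1 stood far above oocyte 3 and the single arrays.

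GGTA1, which adds the alpha-galactose epitope to glycans, had 5.09 to 18.9 over the 9 arrays up to the 16-cell stage, 274, 189 and 123 in morulae and 302, 681 and 332 in blastocysts. GGTA1 rose by 4.16 (SE 0.43, adjusted p = 2.40e-04). MME, the membrane peptidase neprilysin, had 1.67 to 34.6 over the 9 arrays up to the 16-cell stage, 331, 382 and 394 in morulae and 326, 149 and 59.5 in blastocysts, a rise of 2.75 (SE 0.56, adjusted p = 0.00891) with every blastocyst array under every morula array. MME did not pass with only the compared stages or without either 1-cell array (adjusted p from 0.0524 to 0.0673). BRB, the brain ribonuclease of cattle, had 7.53 to 17.8 over the 9 arrays up to the 16-cell stage, 231, 439 and 132 in morulae and 113, 138 and 44.1 in blastocysts. BRB rose by 2.09 (SE 0.50, adjusted p = 0.0185), but not in 5 alternatives, a pseudocount of 64 and the fits without 1-cell 1, 1-cell 2, blastocyst 1 or blastocyst 2 (adjusted p from 0.0578 to 0.114). LOC282340, for which the RefSeq table lists RNASE1 as an older name, had 6.55 to 28.3 over the 9 arrays up to the 16-cell stage, 368, 1243 and 1796 in morulae and 1590.0, 604 and 40.9 in blastocysts, a difference of 3.72 (SE 1.18, adjusted p = 0.0597) that did not pass. BRB and LOC282340 are related ribonucleases, so that a probe set may read both, and the signals of these 2 genes are uncertain for that reason.

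Of 7 genes of lipid handling, 5 rose. PLPP3, a phosphatase of lysophospholipids at the cell surface, had 604, 133 and 69.8 in oocytes, 39.3 and 24.3 in 1-cell embryos, 19.6 to 33.3 over the 4 single arrays, 3688, 1601 and 1083 in morulae and 4349, 5039.9 and 422 in blastocysts. It rose by 5.50 (SE 1.13, adjusted p = 0.00902), although not without 1-cell 2 (adjusted p = 0.0746), and oocyte 1 was above blastocyst 3. ESYT2, a lipid-transfer tether between the endoplasmic reticulum and the plasma membrane, had 6.81 to 74.6 over the 9 arrays up to the 16-cell stage, 3971, 4801 and 1949 in morulae and 3179.8, 4629 and 479 in blastocysts. ESYT2 rose by 5.46 (SE 0.96, adjusted p = 0.00401), but not without 1-cell 2 (adjusted p = 0.0543). PLIN3, a coat protein of lipid droplets, had 14.2 to 32.4 over the 9 arrays up to the 16-cell stage, 687, 505 and 856 in morulae and 432, 508 and 1154 in blastocysts. PLIN3 rose by 4.19 (SE 0.47, adjusted p = 3.72e-04). ACSL6, which activates long-chain fatty acids, had 70.6 to 197 over the 9 arrays up to the 16-cell stage, 1904, 1337 and 535 in morulae and 1700.0, 4435 and 2539 in blastocysts. ACSL6 rose by 3.97 (SE 0.59, adjusted p = 0.00165). Every later array of PLIN3 and ACSL6 lay above every earlier one. LCAT, which esterifies cholesterol in plasma, had 8.74 to 26.2 over the 9 arrays up to the 16-cell stage, 310.2, 816 and 445 in morulae and 105, 71.0 and 155 in blastocysts, and rose by 1.94 (SE 0.46, adjusted p = 0.0169) although every blastocyst array lay under every morula array. LCAT did not pass with a pseudocount of 64 or without either 1-cell array (adjusted p from 0.0607 to 0.119). DGAT2, which makes triacylglycerol, had 10.9, 31.4 and 10.4 in oocytes, 213 and 51.6 in 1-cell embryos, 5.00 to 27.6 over the 4 single arrays, 1297, 1064 and 444 in morulae and 334, 468 and 203 in blastocysts. 1-cell 1 was well above the oocyte arrays, and the difference of 1.42 (SE 0.65, adjusted p = 0.182) did not pass. MLYCD, malonyl-CoA decarboxylase, had 12.5 to 85.2 over the 9 arrays up to the 16-cell stage, 485, 206 and 5628 in morulae and 504, 409 and 1963 in blastocysts, with morula 3 far above the other morula arrays, and a difference of 3.71 (SE 1.23, adjusted p = 0.0705).

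In vesicle traffic 6 of 8 genes rose. BLOC1S4, a subunit of a complex that sorts cargo to lysosome-related organelles, had 4.93 to 38.2 over the 9 arrays up to the 16-cell stage, 535, 496 and 865 in morulae and 708, 2532 and 646 in blastocysts. BLOC1S4 rose by 5.38 (SE 0.63, adjusted p = 4.52e-04). SPG11 (spatacsin), which acts in the renewal of lysosomes, had 23.8 to 145 over the 9 arrays up to the 16-cell stage, 2527, 1538 and 802 in morulae and 1981, 3174 and 1722 in blastocysts. SPG11 rose by 4.89 (SE 0.56, adjusted p = 4.08e-04). DENND2D, an exchange factor of Rab proteins, had 1.52 to 4.92 over the 9 arrays up to the 16-cell stage, 511, 404 and 937 in morulae and 329.9, 1691 and 271 in blastocysts, and rose by 4.83 (SE 0.68, adjusted p = 0.00125). The golgin GOLGA5, the endosomal sorting subunit VPS28 and SH3BP4, a regulator of endocytosis, rose by 3.81, 3.57 and 2.73 (adjusted p = 0.00176, 0.0415 and 0.00814), with morula and blastocyst signals of 404 to 1728, 368 to 1773 and 256 to 663. VPS28 did not pass in 8 settings, with adjusted p from 0.0501 to 0.324, among them quantile normalization and the fits without 1-cell 2 or any 1 blastocyst array, and SH3BP4 did not with only the compared stages or without 1-cell 1 (adjusted p = 0.0563 and 0.0834). EXOC1 of the exocyst and RTP3, a receptor transporter protein, did not pass, at 1.99 and 1.83 (adjusted p = 0.129 and 0.230). Both had blastocyst 3 far under the other blastocyst arrays, with 823, 1056 and 157 for EXOC1 and 496, 411 and 21.0 for RTP3.

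Among 10 genes of signalling, 7 rose. MOB3B, of the MOB family of kinase regulators, had 159, 13.5 and 16.4 in oocytes, 17.9 and 7.30 in 1-cell embryos, 1.81 to 20.3 over the 4 single arrays, 3589, 3448 and 160.3 in morulae and 6686, 6119 and 3533 in blastocysts. It rose by 7.55 (SE 1.25, adjusted p = 0.00284), and morula 3 was level with oocyte 1. DAPP1, an adaptor that binds phosphoinositides, had 10.2 to 52.5 over the 9 arrays up to the 16-cell stage, 580.1, 665 and 1800.0 in morulae and 983, 2668 and 881 in blastocysts. DAPP1 rose by 5.43 (SE 0.67, adjusted p = 6.05e-04). FCGR2B, the inhibitory receptor for immunoglobulin G, had 18.2 to 36.1 over the 9 arrays up to the 16-cell stage, 579.7, 794 and 423 in morulae and 2060.3, 2307 and 659 in blastocysts. FCGR2B rose by 5.15 (SE 0.56, adjusted p = 3.10e-04). SIKE1, a suppressor of the innate immune kinase IKK-epsilon, had 28.1 to 199 over the 9 arrays up to the 16-cell stage, 1247, 1173 and 757 in morulae and 2221, 2266 and 1302 in blastocysts. SIKE1 rose by 4.21 (SE 0.55, adjusted p = 8.32e-04). MAP3K20, a stress-activated kinase, RGL2, an activator of Ral proteins, and GNG11, a G-protein gamma subunit, rose by 4.47, 2.31 and 3.53 (adjusted p = 7.00e-04, 0.00239 and 0.00317). For these 3 genes the morula and blastocyst signals ran over 399 to 1877, 171 to 559 and 225 to 2407.

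The 3 signalling genes that did not pass had their highest arrays in the morula. RSPO3, a secreted protein that strengthens Wnt signalling, had 619, 535 and 19.6 in oocytes, 358 and 278 in 1-cell embryos, 18.8 to 221 over the 4 single arrays, 2036, 3211 and 1919.7 in morulae and 777, 632 and 284 in blastocysts. The blastocyst arrays of RSPO3 overlapped the 1-cell arrays, with a difference of 0.69 (SE 1.08, adjusted p = 0.742). CHP2, a partner of sodium-proton exchangers, had 35.7, 6.97 and 7.69 in oocytes, 12.04 and 453 in 1-cell embryos, 4.28 to 10.2 over the 4 single arrays, 1011, 924 and 423 in morulae and 256, 227 and 5.73 in blastocysts. The 2 1-cell arrays of CHP2 disagreed, and the difference was -0.02 (SE 1.28, adjusted p = 0.998). PTPN6 (SHP-1), a tyrosine phosphatase known from blood cells, had 14.4, 4.09 and 17.5 in oocytes, 11.2 and 30.0 in 1-cell embryos, 8.04 to 13.02 over the 4 single arrays, 113, 218 and 365 in morulae and 53.4, 18.6 and 41.3 in blastocysts, a difference of 0.55 (SE 0.49, adjusted p = 0.523). As FCGR2B, PTPN6, DAPP1 and CD38 are also known from leukocytes, blood and immune markers are given beside them: the 18 measured summed to 670 to 1287 in oocytes, 1094 to 1231 in 1-cell embryos, 3637 on the 16-cell array, 3585 to 11391 in morulae and 1234 to 4468 in blastocysts. Of the defining markers, PTPRC, TYROBP and CD14 had 13.3 to 37.0, 2.12 to 16.8 and 32.3 to 68.2 over all 15 arrays. CSF1R fell, with 89.9, 78.2 and 105 in blastocysts, against 510.3 and 807 in 1-cell embryos, and had 298, 460.1 and 1136 in morulae and 1207 on the 16-cell array. CD68 had 123, 171 and 85.2 in morulae, against 63.3, 41.0 and 70.5 in oocytes. The globin gene HBB had 20.7, 18.2 and 30.3 in oocytes, 1382, 1437 and 232 in morulae and 306, 176 and 27.2 in blastocysts. Between blastocysts and 1-cell embryos only the globin gene HBG of the 18 rose, while CSF1R and S100A12 fell, beside 12.7% and 8.36% of all genes. The sum includes these globins, so it is no measure of leukocytes alone. The part of these markers in the values of the 4 genes was not tested.

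Both placental proteins of the set rose. PLAC8A, for which the RefSeq table lists PLAC8 as a synonym, had 40.9, 22.0 and 29.9 in oocytes, 14.2 and 16.2 in 1-cell embryos, 16.3 to 41.5 over the 4 single arrays, 1537, 1355 and 297 in morulae and 3586, 4306 and 2651 in blastocysts. SSLP1, listed there also as SOLD1, a secreted Ly-6 domain protein of cattle trophoblast, had 185, 98.8 and 95.5 in oocytes, 109 and 85.8 in 1-cell embryos, 40.4 to 98.3 over the 4 single arrays, 1925, 2222 and 489.7 in morulae and 2499, 3732 and 2337 in blastocysts. PLAC8A exceeded its 1-cell level by 6.80 (SE 0.65, adjusted p = 1.68e-04) and SSLP1 by 4.64 (SE 0.65, adjusted p = 0.00116), and in both every blastocyst array lay above every morula array.

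All 6 genes of mitochondria and other metabolism rose. SHPK (sedoheptulokinase), which feeds the pentose phosphate pathway, had 10.3, 8.00 and 4.92 in oocytes, 4.88 and 2.97 in 1-cell embryos, 2.91 to 5.85 over the 4 single arrays, 855, 728 and 10.2 in morulae and 752, 1171 and 657 in blastocysts. As with SLC39A2, morula 3 of SHPK was at the early level, and its rise of 5.42 (SE 1.21, adjusted p = 0.0136) did not pass without 1-cell 1 or 1-cell 2 (adjusted p = 0.0721 and 0.0906). MTARC2, a reductase of the outer mitochondrial membrane, had 2.37 to 13.2 over the 9 arrays up to the 16-cell stage, 291, 437 and 34.9 in morulae and 703, 498 and 560.4 in blastocysts. MTARC2 rose by 4.88 (SE 0.74, adjusted p = 0.00187). NDUFS7, an iron-sulfur subunit of respiratory complex I, had 13.6 to 403 over the 9 arrays up to the 16-cell stage, 2306, 2582 and 756 in morulae and 1619, 1376 and 1107 in blastocysts. NDUFS7 rose by 3.64 (SE 0.82, adjusted p = 0.0139), with oocyte 3 the highest early array, but not without 1-cell 1 or 1-cell 2 (adjusted p = 0.0814 and 0.0817). CRYL1, an L-gulonate dehydrogenase, APOOL, of the complex that shapes mitochondrial cristae, and CCDC90B, a protein of the inner mitochondrial membrane, rose by 3.64, 3.38 and 2.97 (adjusted p = 0.00299, 0.00634 and 2.84e-04), with morula and blastocyst signals of 525 to 945, 226 to 1167 and 157 to 326. APOOL did not pass without 1-cell 2 (adjusted p = 0.0501).

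Of the last 8 genes, 3 rose. RBM47, an RNA-binding protein with roles in editing and splicing, had 347, 271 and 774 in oocytes, 249 and 218 in 1-cell embryos, 247 to 686 over the 4 single arrays, 5491, 4895 and 4050.3 in morulae and 4749, 6182 and 4924 in blastocysts. Its signal was present at every stage, the lowest later array lay above every earlier one, and it rose by 4.40 (SE 0.46, adjusted p = 2.71e-04). C16H1orf115, an open reading frame, had 8.43 to 36.9 over the 9 arrays up to the 16-cell stage, 677, 906 and 907 in morulae and 1273, 654 and 1025 in blastocysts. C16H1orf115 rose by 4.92 (SE 0.43, adjusted p = 1.15e-04). LOC767968, with BEX1 and BEX2 as older names, had 10.4 to 39.4 over the 9 arrays up to the 16-cell stage, 275, 258 and 1025 in morulae and 197, 125 and 111 in blastocysts, and its rise of 2.43 (SE 0.54, adjusted p = 0.0136) did not pass with a pseudocount of 64 or without either 1-cell array (adjusted p 0.0697 to 0.0927). RPP25L, a relative of a ribonuclease P subunit, TP53RK, a kinase of the complex that modifies transfer RNA, TRIM2, a ubiquitin ligase, C23H6orf47 and PNMA2 did not pass, at 3.87, 2.61, 2.31, 1.35 and 1.12 (adjusted p = 0.0547, 0.179, 0.267, 0.348 and 0.605). In all 5 of these genes blastocyst 3 was the lowest of the blastocyst arrays: it had 144 for RPP25L, 9.73 for TP53RK, 449.5 for TRIM2, 6.28 for C23H6orf47 and 17.7 for PNMA2. Over the whole set blastocyst 3 was the lowest blastocyst array for 45 of the 66 genes and the highest for 10, against 3692 and 3487 of all 9155 genes.

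From morula to blastocyst the genes went different ways, which is a description without a test because the morula arrays chose them. The blastocyst mean lay 1 or more above the morula mean for 17 genes, 1 or more below it for 16 and within 1 of it for 33, on the log2 scale, against 8.26% above and 8.08% below over all genes. SLC39A2, MOB3B, PLAC8A, CD38 and CTSL lay highest above, by 2.42, 2.02, 1.99, 1.97 and 1.97. CHP2, C23H6orf47, PCDH1, PTPN6 and RSPO3 lay farthest below, at -2.74, -2.51, -2.20, -2.13 and -2.13. For SLC39A2 and MOB3B morula 3 was at the level of an early array, at 1.00 and 160.3, and lowered the morula mean. It was also the lowest morula array for PLAC8A, CD38 and CTSL, at 297, 188 and 201, and lowered their means. Morula 1 and 2 had 1537 and 1355 for PLAC8A, 687 and 551 for CD38 and 860.4 and 637 for CTSL. For C23H6orf47, PCDH1 and PTPN6 morula 3 was the highest morula array and raised the mean. In morulae C23H6orf47 had 169, 109 and 1090, PCDH1 301, 391 and 1148 and PTPN6 113, 218 and 365. For CHP2 and RSPO3 morula 3 was the lowest morula array. In each of these genes that lay farthest below, every blastocyst array lay under every morula array. All 3 blastocyst arrays lay above all 3 morula arrays for 9 of the 66 genes and below them for 10, where 7.25% and 9.80% of all genes did so. By role, 5 and 3 of the 9 surface, secreted and lysosomal enzymes lay 1 or more above and 1 or more below the morula. The counts were 4 and 1 of the 8 genes of epithelium, cytoskeleton and adhesion. For the 10 signalling genes they were 2 and 4, and for the last 8 genes 0 and 3. They were 1 and 2 of the 8 transport genes, 1 and 2 of the 7 lipid genes, 0 and 1 of the 8 vesicle genes, 2 and 0 of the 6 metabolic genes and 2 and 0 of the 2 placental proteins.

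**Figure D4:**
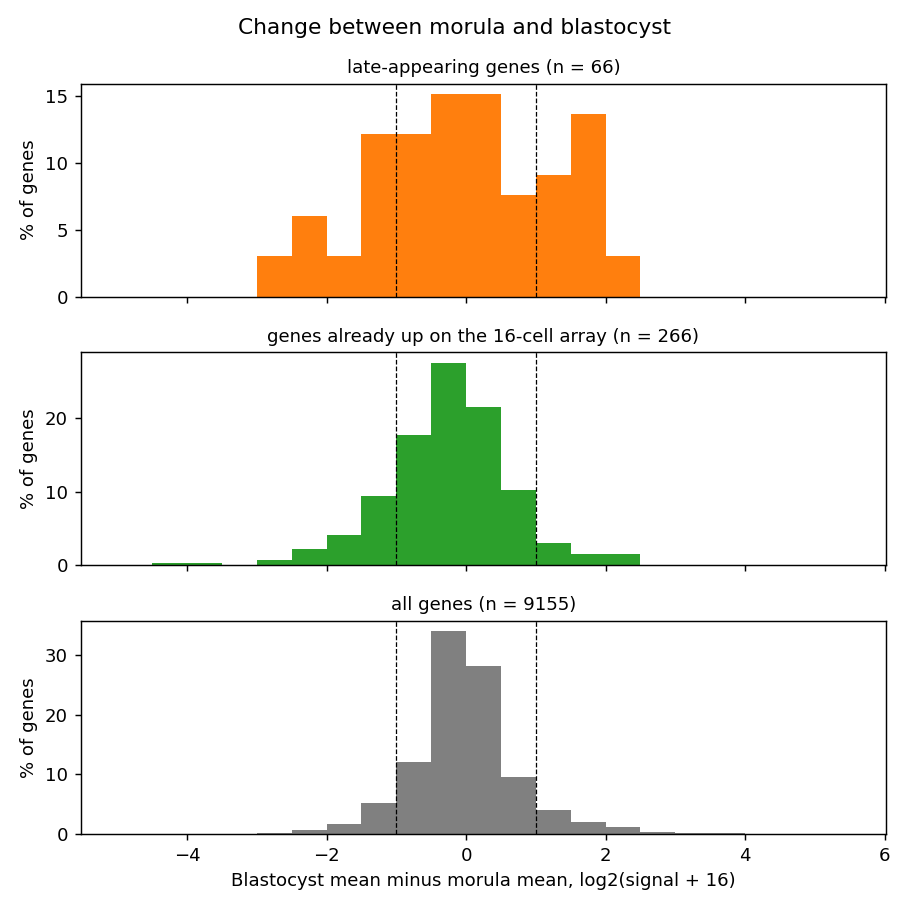
Blastocyst mean minus morula mean on the log2(signal + 16) scale (x axis) as a share of genes (y axis, %) for 66 late-appearing genes, 266 genes already up on the 16-cell array and all 9155 genes; dashed lines mark -1 and 1. Of the late-appearing genes 25.8% lie at 1 or above, against 6.02% of the genes already up at the 16-cell stage and 8.26% of all genes.

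The genes most like this set are those that met the same morula threshold, were also under 1 above the oocyte mean on the 2-cell, 4-cell and 8-cell arrays, but lay 1 or more above it on the 16-cell array. There were 266 of them, and their median signal on the 16-cell array was 1160.5, against 22.8 for the 66 late-appearing genes, which the rules fix. In the blastocyst 17 of the 66 genes (25.8%) lay 1 or more above their morula mean, against 16 of the 266 genes (6.02%), and 16 (24.2%) lay 1 or more below, against 46 (17.3%). Between blastocysts and 1-cell embryos 75.8% of the late-appearing genes and 86.1% of the 266 genes rose, with medians of 4.07 and 4.00. These are counts over genes of the same arrays, and no test of the difference between the sets was made. Morula 3 was the lowest morula array for 38 of the 66 genes and 158 of the 266, and the highest for 22 and 83. It lay 4-fold or more from morula 1 for 17 of the 66 genes and 28 of the 266. The part of morula 3 in the counts above and below the morula mean was not tested. The 2 sets were told apart by the single 16-cell array, which carried stromal transcripts, and the part of these in the split was not tested.

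**Figure D5:**
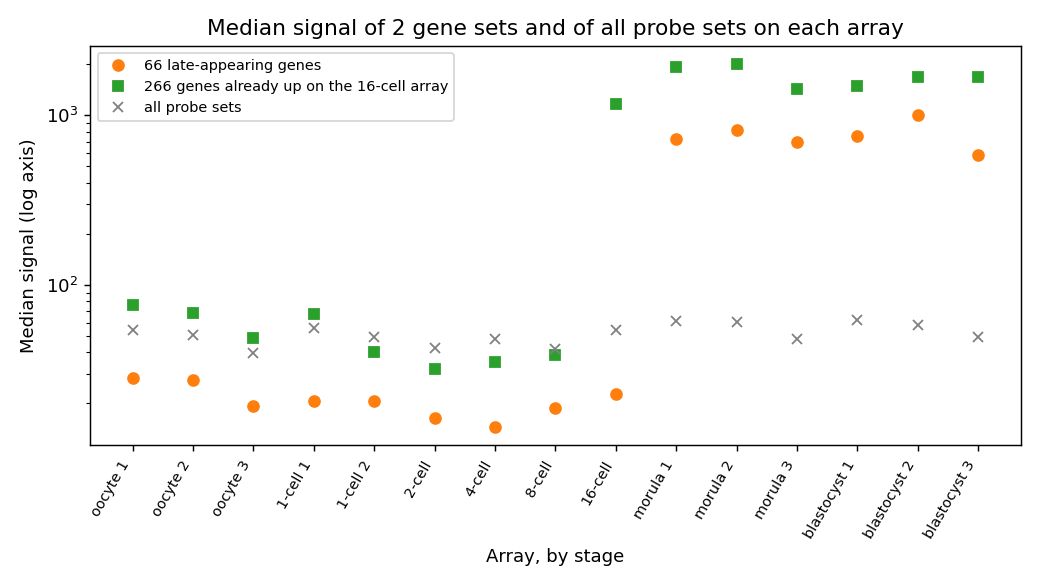
Median signal (log axis) of the 66 late-appearing genes (circles), of 266 genes already up on the 16-cell array (squares) and of all 24016 probe sets (crosses) on each of the 15 arrays, by stage. On the 16-cell array the late-appearing genes had a median of 22.8 and the other set 1160.5, as their definitions require, and in blastocysts the late-appearing genes had 755, 1000.4 and 581.

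Lists of epithelial and lineage genes held 0 or 1 gene of the set each by symbol, beside a share of 0.721% of all genes, so that such counts say little about a list. Of 39 measured genes of epithelial junctions and polarity none was late-appearing, although 17 rose and 1 fell between blastocysts and 1-cell embryos, with a median difference of 0.77, against 12.7% and 8.36% and a median of 0.04 over all genes. Of 31 keratin and apical cytoskeleton genes 10 rose and 1 fell (median 1.34), with KRT18 the only late-appearing one. KRT8, its partner, had 24.2 to 52.9 on the 9 arrays up to the 16-cell stage, 142, 46.4 and 22.8 in morulae and 621, 648 and 354 in blastocysts, and rose by 3.37 (SE 0.55, adjusted p = 0.00264) without reaching the morula threshold. KRT19 was uneven on the early arrays, at 5.31 to 1186, and its difference of 5.08 (SE 1.63, adjusted p = 0.0626) did not pass. Of 32 trophectoderm and placenta genes 13 rose and none fell (median 0.73, 1 lower at an unadjusted p of 0.05), with GRHL1 the only late-appearing one by symbol. That list also held PLAC8, a synonym of the late-appearing PLAC8A, which was not counted in it because the symbols differ. Of 22 genes of the inner cell mass and hypoblast 11 rose and none fell (median 1.52, also 1 lower at an unadjusted p), with RSPO3. Several known genes of these lineages had a high 16-cell array. GATA6 of the hypoblast had 5941 there, against 202, 116 and 705 in oocytes, and TEAD4 of the trophectoderm 1144, against 20.8, 44.3 and 37.2. The tight junction gene CLDN6 had 800.4 there, against 105, 112 and 113 in oocytes. The endocytic adaptor DAB2 was uneven before that, with 56.5, 75.1 and 39.1 in oocytes, 268 and 470.2 in 1-cell embryos and 1346, 73.3, 226 and 1821 on the 2-cell to 16-cell arrays. The water channel AQP3 had 1380.5, 279 and 503 in oocytes, 584 and 99.1 in 1-cell embryos and 74.1, 2267, 296 and 5799 on those arrays. Another tight junction gene, CLDN4, had 8.59 to 50.9 on the 9 early arrays and 2879, 1303 and 1719 in morulae, and missed the rule by a highest early excess of 1.34. CDH1 (E-cadherin) did not pass between blastocysts and 1-cell embryos, at 2.30 (SE 1.18, adjusted p = 0.234), and LGALS3 (galectin-3) rose by 2.42 (SE 0.41, adjusted p = 0.00322), with 11548, 15706 and 13897 in blastocysts, against 1989 and 3203 in 1-cell embryos.

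The transport and metabolic lists are given beside the 0.721% of all genes that belong to the set. Of 47 solute carriers, pumps and channels on the list 14 rose and 4 fell (median 0.26), and SLC2A5 and SLC1A3 were late-appearing. By name alone, 6 of 186 measured genes whose symbol begins with SLC were in the set, a share of 3.23% beside 0.721% of all genes. Of 34 lysosome and endocytosis genes 12 rose and 1 fell (median 1.09), with CTSL in the set, and of 51 genes of lipid and sterol metabolism 12 rose and 2 fell (median 0.50), with PLIN3 and DGAT2. None of 65 enzymes of intermediary metabolism, 56 secreted factors and receptors, 45 matrix, integrin and protease genes, 25 annexins, S100 proteins and galectins, 40 redox genes or 23 interferon-induced genes was late-appearing; 23, 6, 11, 9, 5 and 4 of them rose and 2, 2, 3, 1, 5 and 0 fell, beside 12.7% higher and 8.36% lower over all genes. At an unadjusted p of 0.05 also 0 of the interferon-induced genes were lower. The lists of markers of cumulus and granulosa cells, stroma, blood and immune cells, endothelium and sperm held 0 late-appearing genes, and with 10 to 23 measured genes each, nothing is read from that beside 0.721% of all genes. Of these marker lists 6 of 23, 0 of 14, 1 of 18, 0 of 11 and 1 of 10 genes rose and 3, 1, 2, 2 and 1 fell, beside the same 12.7% and 8.36% of all genes, and of 10 oocyte genes all fell. At an unadjusted p of 0.05, 0 of the stromal, 1 of the endothelial and 0 of the oocyte genes were higher.

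Genes with several probe sets gave mixed answers, and 46 of the 66 genes had only 1. The other 20 had 30 further probe sets, of which 15 stayed under a signal of 100 on every array, 2 met the rule and 4 rose between blastocysts and 1-cell embryos. The 2 that met the rule were of PLPP3, with a difference of 3.55 (adjusted p = 0.00210), and of ENPEP, with 3.18 (adjusted p = 0.0786). Of 2 further probe sets of SLC2A5, 1 rose by 3.42. That of GALNT1 rose by 2.42, and 1 of 3 further probe sets of EXOC1 rose by 2.29. Some further probe sets were up before the morula: that of GALNT1 had a highest early excess of 2.26 beside a morula rise of 2.40. The highest early excess was also above 1 for another probe set of EXOC1 (1.55), that of SIKE1 (2.71) and 1 of C23H6orf47 (2.58). It stayed under 1 for the remaining further probe sets. The largest gaps were those of CD38, at 0.35 beside 6.39 for the probe set used, PLPP3, with another at -0.19 beside 5.50, PLAC8A, at 1.74 beside 6.80, GRHL1, at -0.09 beside 4.79, and SPG11, at 0.35 beside 4.89. Of these, the second probe sets of CD38, GRHL1 and SPG11 and the one of PLPP3 stayed under a signal of 100 on every array, while that of PLAC8A reached 175.

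The set was spread over the genome. In the RefSeq annotation of assembly ARS-UCD2.0 all 66 genes were found, on 27 chromosomes. C16H1orf115 and MTARC2 on chromosome 16 are neighbours with no protein-coding gene between them, and both rose, by 4.92 and 4.88. SLC39A2, BRB and LOC282340 lie near each other on chromosome 10, with 5 protein-coding genes between SLC39A2 and BRB and 4 between BRB and LOC282340. Their patterns differed in the blastocyst, where SLC39A2 had 3126, 3417 and 1576, BRB 113, 138 and 44.1 and LOC282340 1590.0, 604 and 40.9.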

How the data were processed

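The authors deposited 1 signal per probe set and array, an intensity on a linear scale, and the labels' protocols give 3 rounds of amplification before hybridization. How the authors summarised, scaled or floored the signals is not given in the sources used here, and 2.56% of values are exactly 1. No scanner files were used, so depth has no meaning here and the number of arrays limits the precision. Of 24128 probe sets 112 controls were left out and 24016 tested. GEO's platform annotation gave 13292 probe sets 1 gene symbol, 86 several and 10638 none, while RefSeq identifiers matched 13263.

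Signals were taken as log2(signal + 16) without further normalization. Limma 3.58.1 in R 4.3.3 fitted a mean per stage over all 15 arrays (7 residual degrees of freedom, eBayes with a variance trend), and blastocyst minus 1-cell p-values were adjusted by Benjamini-Hochberg over all probe sets, with a threshold of 0.05. The fit was tested on simulated data. Tables and figures used Python 3.11.15, pandas 2.3.3 and matplotlib 3.10.9. A log2 difference on this scale understates the change of dim probe sets.

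The genes, gene lists and tests were chosen with earlier results of these data known, and the roles were assigned after the genes were seen. Genes described at length were the 20 with the largest passed difference and all blastocyst arrays above both 1-cell arrays, up to 5 per gene list by morula mean, the 5 smallest differences, the 5 largest differences each way between blastocyst and morula, those nearest the thresholds, up to 5 with disagreeing probe sets, and listed epithelial and lineage genes, of which TFAP2C was not measured. The other genes of the set are named so that each is accounted for. Alternatives covered normalization, pseudocounts of 1 and 64, a filter on low signal, variance settings, blocks, left-out arrays and the limits of the rule. The block by spike-in signal, the fit without arrays numbered 3 and the rule without oocyte 3 and morula 3 were added after seeing the data. No sequences are shown.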

Additional observations from a re-analysis of the deposited data

How the results depend on the processing

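The number of late-appearing genes was 161 with a morula threshold of 2, 26 with a threshold of 4 and 135 with early arrays allowed up to 2 above the oocyte mean. It was 64 with quantile normalization (53 shared with the 66), 62 with median centring (58 shared), 78 with a pseudocount of 1 (53 shared), 47 with a pseudocount of 64 (30 shared), and 64 to 95 when 1 oocyte or morula array was left out. Of the 66 genes, 34 rose in all 16 settings run on every probe set. Leaving out every array numbered 3, which was added after the data had been seen, gave 3869 higher and 2961 lower probe sets and 61 of the 66 genes higher. With 1 array of the compared stages left out, 1000 to 2233 probe sets were higher, 843 to 1489 lower, and 36 to 56 of the 66 genes higher. A lone 1-cell array is then assumed to vary like the other stages. The difference of CHP2 turned to 0.56 with a replicate block, to 1.16 without the arrays numbered 3 and without blastocyst 3, and to 2.01 without 1-cell 2, and was -2.06 without 1-cell 1. That of PCDH1 turned to 0.78 without 1-cell 2 and 0.0078 without blastocyst 2, and was -2.10 without 1-cell 1. None of these passed, and the cause was not tested. Whether replicate numbers pair the samples was left undecided. Deviations correlated at 0.155 for blastocyst 1 and 1-cell 1 and -0.0902 for blastocyst 2 and 1-cell 2. With 2 1-cell arrays, each has the deviations of the other with the sign turned, so these correlations cannot decide it. The fit with the replicate block gave 2723 higher and 1943 lower probe sets, and 53 of the 66 genes higher, but SLC5A10 did not pass (adjusted p = 0.0536), nor did VPS28 (0.0724). With 2 1-cell arrays and a single 16-cell array, small differences could not be detected, and no test was made of the low 16-cell values.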
